A study of Mus musculus with 5 samples.

Results

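The 42 genes described here encode the actin filament, the myosin motors that pull on it, the proteins that bundle, cap or anchor it, and the transcription factor SRF with its coactivators. They were taken by gene symbol from the tables of 14454 symbols, and all 42 had an entry. RNA was sequenced from NIH/3T3, an immortalised line of mouse embryonic fibroblasts. Each of 4 lines carried an integrated transgene for human histone H2A with the T120D substitution, in which aspartate replaces a threonine of the H2A tail, fused to EGFP (T120D lines 3, 6, 15 and 18). The comparison line carried EGFP fused to wild-type human H2A (1 line, wt), so both groups express a tagged human histone besides their own. The labels do not give the promoter of the transgene, and they do not say whether a line is a clone or a pool of cells.

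Actin filaments grow by addition of monomers at one end and are cut and emptied at the other, a cycle in which profilin supplies monomers and cofilin severs old filaments. In fibroblasts, filaments crosslinked by alpha-actinin and decorated with tropomyosin and non-muscle myosin II form stress fibres, which pull on focal adhesions. SRF (serum response factor) binds a short element called the CArG box in the promoters of many of these genes. Its coactivators of the MRTF family, named Mkl1 and Mkl2 in the tables, are held in the cytoplasm by actin monomers and enter the nucleus when monomers are used up by polymerisation.

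Levels are in RPKM, reads scaled to the length of the transcript and to the mapped reads of the library, and differences are T120D minus wt on the log2(RPKM + 1) scale unless a fold is named, which is a ratio of RPKM. A gene was called when its limma p, adjusted by the Benjamini-Hochberg method over 10052 tested genes, was under 0.05. The estimated depth was 2520000 to 2700000 reads in the T120D lines and 2730000 in the wt line, so that 1 read of a transcript of 2000 bases is worth 0.18 to 0.20 RPKM. There was 1 wt line, so each p weighs its distance by how much the T120D lines vary, and the smallest one-sided p that exact permutation allows in this design is 0.2. RNA came from whole cultures, in which more cells with a transcript and more transcript per cell cannot be told apart. Fibroblast markers summed to 1246 to 1351 RPKM in the T120D lines and 1243 RPKM in the wt line. Of these 5 markers Thy1 was called higher (55.01 ± 7.26 RPKM, SD, n = 4, in T120D lines, against 20.3 in wt) and Pdgfrb and Col1a2 lower (8.004 ± 0.639 and 246 ± 19.7 RPKM in T120D lines, against 18.5 and 334 in wt). The call of Col1a2 was lost in 5 of 11 alternative settings, among them without T120D line 3 (limma adjusted p = 0.0578) and without line 18 (0.0539). Vim and Col1a1 were not called. The part of these markers in the results below was not tested. Markers of skeletal muscle, epithelium, endothelium and macrophages with values in the tables summed to at most 0.471 RPKM in any T120D line and 0.249 RPKM in the wt line. In that order 2 of 5, 1 of 4, 2 of 3 and 1 of 3 markers had a value. These sums therefore say nothing of the missing ones, among them Epcam and Ptprc. Smooth muscle markers, 4 of 6 with a value, summed to 7.75 to 9.26 RPKM in the T120D lines and 6.69 RPKM in the wt line, most of it Smtn. The skeletal muscle gene Tnnt3 and the endothelial gene Pecam1 were listed at 0 in all 5 lines.

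SRF recognises CArG boxes, and promoter windows that hold one are printed here to show the element in the genes compared below. RefSeq promoters of GRCm38.p6, running from 250 bases before to 50 bases after the annotated start, were found for 40 of the 42 genes, with Mkl1 and Mkl2 under their newer names Mrtfa and Mrtfb. Actb and Tagln had no entry. The search took the CArG box with a core of A and T only, which reads the same way on both strands, and in a wider form a core with at most 1 G or C. One window is shown for each gene with an A and T core, and of the 8 genes with the wider form alone Acta2 and Myl12a, both called higher, are shown as examples. The other genes with the wider form alone were Vasp, Flnc, Tpm3, Lpp, Rdx and Mkl1, of which Tpm3, Rdx and Mkl1 were not called. Further windows of Myl9 and Fhl2 are not shown. Capitals mark the boxes, and each line runs 5′ to 3′ on the strand of the gene.

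Acta2 (chr19:34255373-34255482, minus strand, wider form, both boxes): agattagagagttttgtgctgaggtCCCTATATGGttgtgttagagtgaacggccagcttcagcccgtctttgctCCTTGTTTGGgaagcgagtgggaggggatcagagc
Actg1 (chr11:120348551-120348610, minus strand): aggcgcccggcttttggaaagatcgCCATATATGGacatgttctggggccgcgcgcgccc
Cnn2 (chr10:79988519-79988578, plus strand): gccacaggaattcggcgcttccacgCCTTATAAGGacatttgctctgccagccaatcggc
Myl6 (chr10:128493025-128493084, minus strand): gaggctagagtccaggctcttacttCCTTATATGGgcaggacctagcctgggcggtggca
Myl12a (chr17:71002517-71002576, minus strand, wider form): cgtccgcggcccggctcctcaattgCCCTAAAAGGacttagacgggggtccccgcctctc
Myl9 (chr2:156775278-156775337, plus strand): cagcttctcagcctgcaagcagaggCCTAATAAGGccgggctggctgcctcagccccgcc
Lima1 (chr15:99820162-99820221, minus strand): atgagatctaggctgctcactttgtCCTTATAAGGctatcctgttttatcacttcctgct
Fhl2 (chr1:43163958-43164017, minus strand): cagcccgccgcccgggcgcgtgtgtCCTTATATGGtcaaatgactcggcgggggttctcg
Srf (chr17:46556190-46556269, minus strand, both boxes): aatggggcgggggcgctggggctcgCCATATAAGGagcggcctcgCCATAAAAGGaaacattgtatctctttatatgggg

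A box with an A and T core lay in the promoters of 7 of the 40 genes (17.5%), namely Actg1, Cnn2, Fhl2, Lima1, Myl6, Myl9 and Srf, against 488 of 27025 genes of the promoter table (1.81%). With the wider form included the counts were 15 of 40 (37.5%) and 3050 of 27025 (11.3%). Of the 8097 tested genes with a promoter, 128 (1.58%) had an A and T core and 835 (10.3%) had either form. The list was put together around SRF and cytoskeletal genes, many of them known to carry the box. Its higher share thus follows in part from the choice of genes. Boxes began 90 bases before the start in Actg1, 56 in Cnn2, 50 in Myl6 and 47 in Lima1. Srf had boxes at 82 and 62 bases before its own start. A match describes these letters only and is not evidence that SRF binds there.

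Most of the 42 genes were higher in the T120D lines. Of the 39 genes that passed the filter on low values (a mean over the 5 lines of 1 RPKM or more), 24 were called higher and 0 lower (limma), where 7.65% of all tested genes were called higher and 5.45% lower. At an unadjusted p under 0.05 (limma), 28 of the 39 were higher and 2 lower. Over the 10052 tested genes these counts were 1524 and 1345, and over the 1621 of at least 20 RPKM 526 and 260. Most of the 39 genes are abundant, and abundant genes were called more often. Where the mean reached 20 RPKM, 20.5% of tested genes were called higher and 9.13% lower, and of the 29 cytoskeletal genes at that level 20 were called higher and 0 lower. Counts by role given below rest on 3 to 6 tested genes each. Each is to be set against the 7.65% of all tested genes and 20.5% of those of at least 20 RPKM called higher. With so few genes, no such count is read as a result about its role. The median difference was 0.61, against -0.02 over all tested genes, and in single T120D lines it was 0.69 (line 3), 0.55 (line 6), 0.66 (line 15) and 0.59 (line 18).

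All 4 T120D lines lay above the wt line for 32 of the 39 genes. This held for 31.1% of all tested genes and 48.7% of those of at least 20 RPKM. The T120D lines all lay below wt for 3 genes, Lima1, Cnn3 and Mkl1. This held for 32.3% of all tested genes and 27.4% of those of at least 20 RPKM. Rdx and Myh10 count among the 32, although their T120D line 18 was barely above wt (27 against 26.97 RPKM and 16.92 against 16.87 RPKM). In 22 genes the T120D mean was at least 1.5 times the wt level. Over all tested genes this share was 12.6%, and over those of at least 20 RPKM 15.2%. Together the 42 genes made up 2.82% to 3.02% of the summed RPKM of the T120D lines and 1.77% of that of the wt line. The plot of RPKM by line shows this as a shift of most rows to the right of the wt mark.

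**Figure D1:**
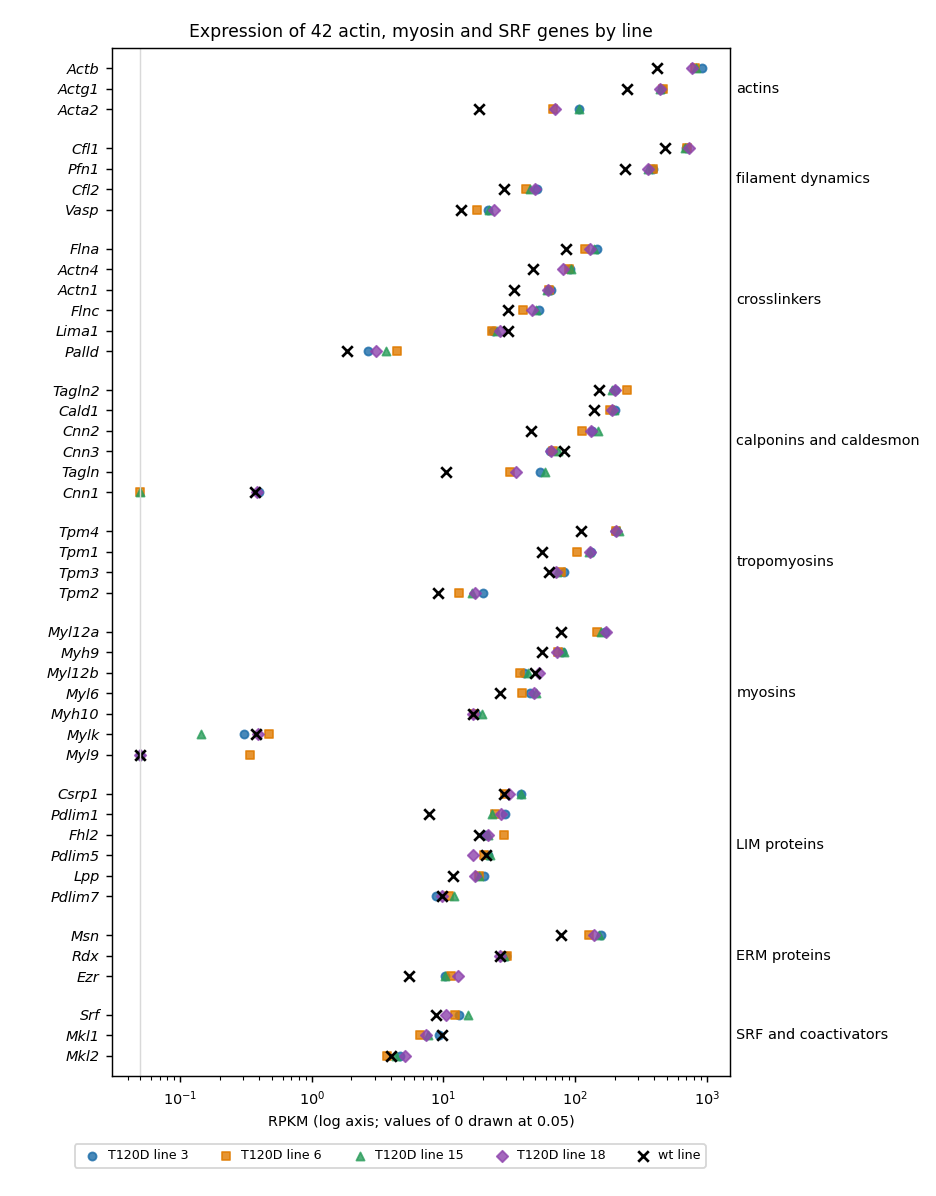
RPKM (log axis) of each of the 42 genes in T120D lines 3, 6, 15 and 18 (coloured symbols) and in the wt line (cross), by role; values of 0 are drawn at 0.05. All T120D lines lie right of the wt cross for 32 of the 39 tested genes, and Cnn1, Mylk and Myl9 lie under 0.5 RPKM in all lines.

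The 3 actin genes among the 42 rose. Acta2, the smooth muscle actin that marks activated fibroblasts, had 107, 67.6, 107 and 70.5 RPKM in T120D lines 3, 6, 15 and 18 and 18.7 RPKM in the wt line. The lowest T120D line was thus well above wt, and the T120D lines differed among themselves, with lines 3 and 15 high and lines 6 and 18 lower. The fold was 4.72 and the difference 2.15 (SE 0.25, limma adjusted p = 0.00107). Actb and Actg1, which encode the cytoplasmic beta- and gamma-actin of all non-muscle cells, were the main actin transcripts. Actb had 920, 819, 831 and 772 RPKM in the T120D lines and 418 RPKM in the wt line. Actg1 had 460, 466, 445 and 440 RPKM in the T120D lines and 249 RPKM in the wt line. Neither overlapped between groups, with differences of 0.99 (SE 0.10, limma adjusted p = 0.000379) and 0.86 (SE 0.08, limma adjusted p = 0.000266). Both genes have many processed pseudogenes that can take or lend reads, so their levels are uncertain in all lines, as are those of Pfn1, Cfl1, Myl6 and Tpm3 below.

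Summed over the 3 genes, actin RPKM was 1376 ± 85.3 (SD, n = 4) in T120D lines and 686 in the wt line, a fold of 2.005. Actb made up 60.7 ± 0.817% of that sum in T120D lines and 61.0% in the wt line. Acta2 took 7.21%, 5.0%, 7.73% and 5.50% in T120D lines 3, 6, 15 and 18 and 2.72% in the wt line. The share of Actg1 was 33.0 ± 1.71% in T120D lines and 36.3% in the wt line. The muscle-type actins Acta1 and Actg2 stayed at or under 0.799 RPKM in every line.

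The genes of filament turnover rose by smaller amounts, 4 of 4. Cfl1, the non-muscle cofilin, had 692, 708, 689 and 730 RPKM in T120D lines and 478 RPKM in the wt line. Pfn1, the main profilin, had 388, 390, 358 and 359 RPKM in T120D lines and 241 RPKM in the wt line. In both the T120D values lay within a narrow band above wt, with differences of 0.56 and 0.63 (limma adjusted p = 0.00171 and 0.00215). Cfl2, the muscle-type cofilin, was at 47.4 ± 4.01 RPKM (SD, n = 4) in T120D lines and 28.96 RPKM in the wt line. The difference was 0.69 (limma adjusted p = 0.00988). Vasp, which promotes elongation of filaments at adhesions and the leading edge, was at 21.5 ± 2.61 RPKM in T120D lines and 13.7 RPKM in the wt line. Its difference of 0.61 was close to the threshold (limma adjusted p = 0.0435, range over 11 alternative settings 0.0131 to 0.122). Vasp was not called in 6 of them, among them without T120D line 3, 15 or 18 (limma adjusted p = 0.0845, 0.0792 and 0.0764).

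Of the crosslinkers and bundling proteins, 4 of 6 rose. Actn1 and Actn4, the non-muscle alpha-actinins that tie filaments into antiparallel bundles, moved almost alike. Actn1 had 65.4, 63.3, 60.7 and 62.2 RPKM in T120D lines and 34.1 RPKM in the wt line. Actn4 had 91.1, 89.5, 92.9 and 80.4 RPKM in T120D lines and 48.1 RPKM in the wt line. Both differences were 0.86 (limma adjusted p = 0.00107 and 0.00151), and Actn1 kept 41.6 ± 1.70% of the summed pair in T120D lines against 41.5% in wt. Flna, the filamin that joins filaments at wide angles, was at 134 ± 11.9 RPKM in T120D lines and 85.8 RPKM in the wt line (difference 0.63, limma adjusted p = 0.0102). Flnc, the muscle-type filamin, was at 47.6 ± 5.63 RPKM in T120D lines and 30.8 RPKM in the wt line (0.61, limma adjusted p = 0.0311), a call lost in 6 of 11 alternative settings (range 0.00712 to 0.119), among them without T120D line 3, 15 or 18 (limma adjusted p = 0.0612, 0.0577 and 0.0607). The share of Flnc in the filamin pair was 26.2 ± 0.750% in T120D lines and 26.4% in wt.

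Palld and Lima1 were not called. Palld, which encodes the stress fibre scaffold palladin, had 2.66, 4.45, 3.69 and 3.09 RPKM in T120D lines and 1.85 RPKM in the wt line (0.63, 95% confidence interval 0.05 to 1.22, limma adjusted p = 0.144). Lima1, which encodes EPLIN, a protein that stabilises filaments, had 23.7, 23.4, 25.6 and 26.7 RPKM in T120D lines and 31.1 RPKM in the wt line. Every T120D value was below wt, but the difference of -0.32 (95% confidence interval -0.60 to -0.03) did not pass the threshold (limma adjusted p = 0.139). Lima1 carries a CArG box of the same letters as Cnn2, a gene that rose.

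Of the 5 tested calponin, transgelin and caldesmon genes, 3 rose. Cnn2, the calponin of non-muscle cells, had 136, 113, 150 and 132 RPKM in T120D lines and 46.3 RPKM in the wt line. Cnn3, the acidic calponin, had 64.2, 68.4, 74.5 and 65.2 RPKM in T120D lines and 82.2 RPKM in the wt line. Neither overlapped between groups, but in opposite directions: Cnn2 rose 2.87-fold (difference 1.49, SE 0.14, limma adjusted p = 0.000313), and Cnn3 had a difference of -0.27 (95% confidence interval -0.52 to -0.02, limma adjusted p = 0.147) that was not called. Of the summed calponin RPKM, Cnn2 made up 62.3% to 67.7% in the T120D lines and 35.9% in the wt line. Per length, Cnn2 was thus the more abundant calponin in every T120D line and Cnn3 in the wt line. Cnn1, the smooth muscle calponin, was below the filter on low values: it was at 0.398 and 0.382 RPKM in T120D lines 3 and 18, listed at 0 in lines 6 and 15, and at 0.369 RPKM in the wt line.

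Tagln, which encodes the smooth muscle protein SM22, had 54.4, 32.1, 59.2 and 35.9 RPKM in T120D lines 3, 6, 15 and 18 and 10.4 RPKM in the wt line. The order of the T120D lines resembled that of Acta2, with lines 3 and 15 high and lines 6 and 18 lower, and all lay above wt. The fold was 4.36 and the difference 1.98 (SE 0.30, limma adjusted p = 0.00355). Tagln was not called when genes of low level were kept in the fit (limma adjusted p = 0.0671, lowest of 11 settings 0.0012). Tagln2, its widely expressed relative, had 201, 248, 190 and 202 RPKM in T120D lines and 152 RPKM in the wt line. All values were above wt, with a difference of 0.46 just short of the threshold (limma adjusted p = 0.0544), and 3 of 11 alternative settings called it, among them without T120D line 6 or 15 (limma adjusted p = 0.0207 and 0.0447). Cald1, the caldesmon that binds filaments and restrains myosin, was at 194 ± 7.35 RPKM in T120D lines and 139 RPKM in the wt line (0.47, limma adjusted p = 0.00944).

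**Figure D2:**
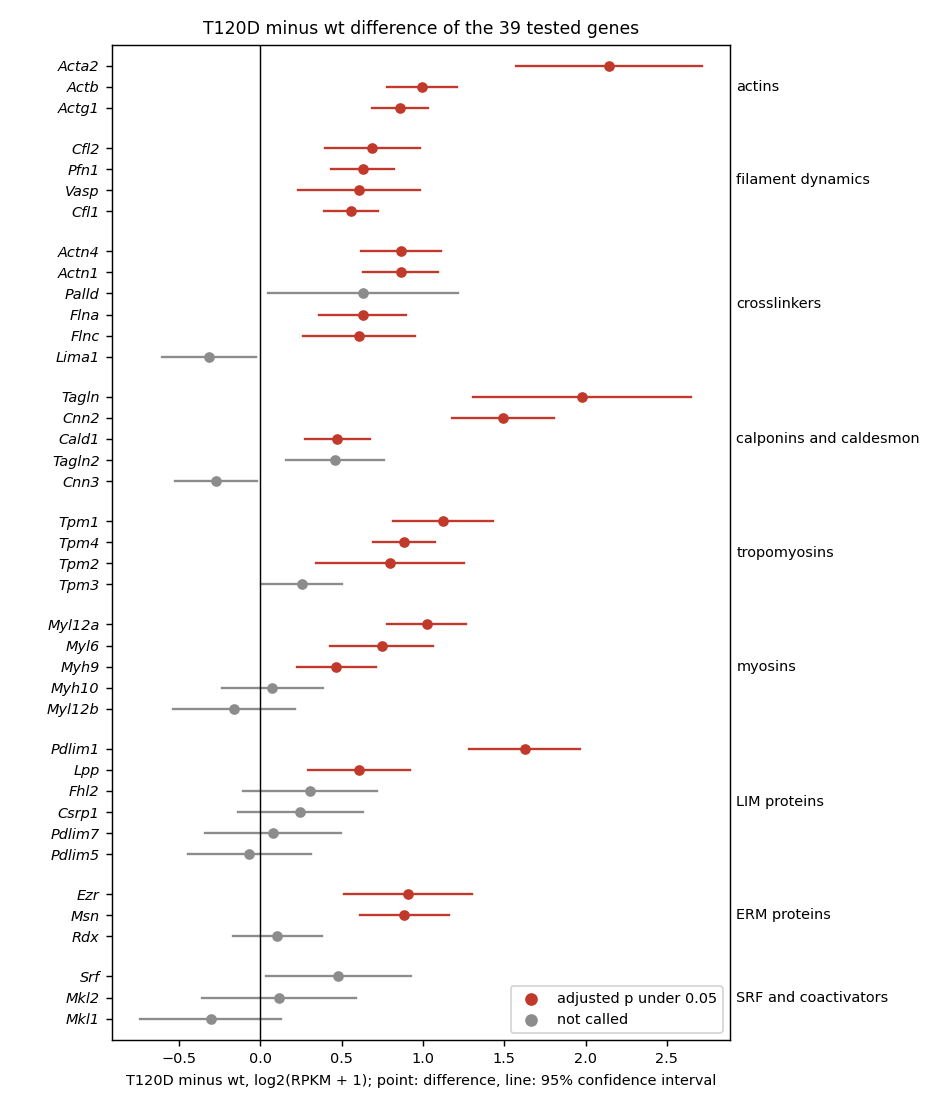
Difference of the 39 tested genes, T120D minus wt on the log2(RPKM + 1) scale, with its 95% confidence interval (lines), by role; red points were called by limma at an adjusted p under 0.05. Acta2, Tagln, Pdlim1 and Cnn2 lie farthest right, and the 5 points left of 0, Lima1, Cnn3, Myl12b, Pdlim5 and Mkl1, are grey.

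Tropomyosins, which lie along the filament and set which myosins and severing proteins can reach it, rose in 3 of 4 genes. Tpm1 had 131, 104, 127 and 130 RPKM in T120D lines 3, 6, 15 and 18 and 55.8 RPKM in the wt line. Tpm4 had 201, 203, 216 and 206 RPKM in T120D lines and 112 RPKM in the wt line. Both were clear of wt in every T120D line, Tpm1 with the larger difference (1.12, SE 0.14, limma adjusted p = 0.00121) and Tpm4 with the tighter spread (0.88, SE 0.09, limma adjusted p = 0.000379). Tpm2, the gene of beta-tropomyosin, was at 16.8 ± 2.84 RPKM in T120D lines and 9.13 RPKM in the wt line. Its difference of 0.80 (limma adjusted p = 0.0319) was lost in 6 of 11 alternative settings (range 0.00869 to 0.125), among them without T120D line 3, 15 or 18 (limma adjusted p = 0.0533, 0.0543 and 0.0655). Tpm3 had 82.5, 78.1, 72.9 and 71.7 RPKM in T120D lines and 63.7 RPKM in the wt line and was not called (0.25, 95% confidence interval 0.01 to 0.50, limma adjusted p = 0.167).

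Summed over the 4 genes, tropomyosin RPKM was 423 ± 17.1 (SD, n = 4) in T120D lines and 240 in the wt line, a fold of 1.76. The share of Tpm3 was 16.8% to 19.6% in the T120D lines and 26.5% in the wt line. That of Tpm1 was 26.0% to 30.7% in the T120D lines and 23.2% in the wt line. Tpm4 stayed close to its wt share, at 48.9 ± 2.08% in T120D lines and 46.4% in the wt line. Each of these genes makes several isoforms by splicing and alternative starts, and the tables give 1 value per gene.

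Of the 5 tested myosin genes, 3 rose. Non-muscle myosin II is built from heavy chains, which hold the motor, and from essential and regulatory light chains. Myh9, the heavy chain of myosin IIA, had 80.0, 74.7, 82.8 and 73.5 RPKM in T120D lines and 55.9 RPKM in the wt line. Myh10, that of myosin IIB, had 17.7, 17.2, 19.5 and 16.9 RPKM in T120D lines and 16.9 RPKM in the wt line. Myh9 rose (0.47, SE 0.11, limma adjusted p = 0.0220), while Myh10 was not called (0.07, 95% confidence interval -0.24 to 0.38, limma adjusted p = 0.768). Myh9 was also not called in 3 of 11 alternative settings (range 0.0165 to 0.105), among them without T120D line 3 (limma adjusted p = 0.0526). Myh9 made up 80.9% to 81.9% of the pair in the T120D lines and 76.8% in the wt line.

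Myl6, the essential light chain, was at 45.9 ± 4.69 RPKM in T120D lines and 26.9 RPKM in the wt line (0.75, limma adjusted p = 0.0102). The regulatory light chains, whose phosphorylation switches the motor on, did not move together. Myl12a had 170, 146, 159 and 171 RPKM in T120D lines and 78.7 RPKM in the wt line. Myl12b had 41.3, 38.1, 44.0 and 53.4 RPKM in T120D lines and 49.2 RPKM in the wt line. Myl12a rose 2.05-fold (1.02, SE 0.11, limma adjusted p = 0.000633) and its groups did not overlap, while those of Myl12b did (-0.16, 95% confidence interval -0.54 to 0.21, limma adjusted p = 0.564). These genes are near-identical copies on chromosome 17 between which reads can be split, so each value is uncertain. Their sum with Myl9 was 206 ± 16.9 RPKM in T120D lines and 128 RPKM in the wt line, a fold of 1.61.

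Myl9, the smooth muscle type regulatory chain, was listed at 0 in the wt line and in T120D lines 3, 15 and 18, and at 0.341 RPKM in line 6. Its promoter window above holds a CArG box. Mylk, the kinase of smooth muscle and non-muscle light chains, was at 0.144 to 0.473 RPKM in the T120D lines and 0.376 RPKM in the wt line. Both were below the filter on low values. With genes of low level kept in the fit, neither was called, with differences of 0.11 for Myl9 (95% confidence interval -0.43 to 0.64, limma adjusted p = 0.793) and -0.06 for Mylk (-0.47 to 0.36, limma adjusted p = 0.834). The smooth muscle genes Des and Lmod1 were also under 0.7 RPKM in every line, and Smtn was at 7.16 ± 0.644 RPKM in T120D lines and 5.36 RPKM in the wt line and was not called (limma adjusted p = 0.222). Of the 12 listed muscle-type contractile genes 2 were tested. The other one, Tnnt2, which encodes cardiac troponin T, was higher at 6.10 ± 2.31 RPKM in T120D lines and 0.658 RPKM in the wt line (2.03, limma adjusted p = 0.00944), and was not called with genes of low level kept (limma adjusted p = 0.0902, lowest of 11 settings 0.004).

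**Figure D3:**
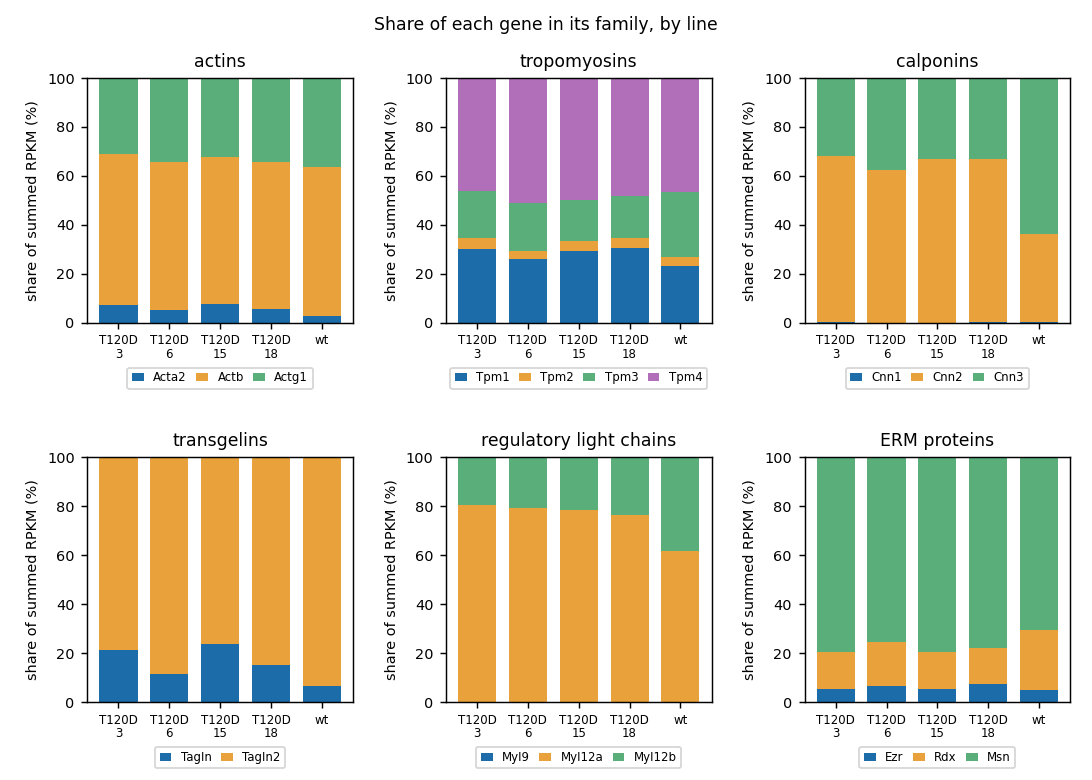
Share of each gene in the summed RPKM of its family (percent, stacked to 100), for T120D lines 3, 6, 15 and 18 and the wt line. The share of Cnn2 among calponins is 62.3% to 67.7% in T120D lines and 35.9% in wt, and that of Myl12a among regulatory light chains 76.2% to 80.5% in T120D lines and 61.5% in wt.

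LIM domain proteins, which sit on filaments and adhesions, had 2 of 6 genes called higher (33.3%). Over all tested genes this share was 7.65%, and over those of at least 20 RPKM 20.5%. With 6 genes the count is not read as a result about this group. Pdlim1, which encodes an adaptor that binds alpha-actinin, had 29.4, 24.8, 23.5 and 27.2 RPKM in T120D lines and 7.80 RPKM in the wt line. All T120D lines were at or above 3 times wt, and the difference was 1.62 (SE 0.15, limma adjusted p = 0.000300). Its relatives Pdlim5 and Pdlim7 overlapped between groups: Pdlim5 had 16.8 to 22.5 RPKM in T120D lines and 21.2 RPKM in wt, and Pdlim7 had 8.86 to 12.1 RPKM in T120D lines and 9.80 RPKM in wt. Their differences were -0.07 (95% confidence interval -0.45 to 0.31) and 0.08 (-0.34 to 0.50). Lpp, a zyxin relative at adhesions, was at 18.7 ± 1.23 RPKM in T120D lines and 11.9 RPKM in the wt line (0.61, limma adjusted p = 0.0222).

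Csrp1 and Fhl2 were not called. Csrp1, a cysteine-rich protein of stress fibres, had 38.7, 29.2, 38.8 and 31.7 RPKM in T120D lines and 28.8 RPKM in the wt line, with lines 3 and 15 again high and lines 6 and 18 low (0.25, limma adjusted p = 0.380). Fhl2, a LIM-only cofactor, had 20.7, 29.1, 21.6 and 21.9 RPKM in T120D lines and 18.5 RPKM in the wt line. Here line 6 was the one that stood apart, and above the rest (0.30, limma adjusted p = 0.314).

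ERM proteins link filaments to the plasma membrane. Of the 3 genes, Msn and Ezr rose. Msn, which encodes moesin, had 158, 128, 152 and 140 RPKM in T120D lines and 77.6 RPKM in the wt line. Ezr, which encodes ezrin, had 10.3, 11.4, 10.3 and 12.98 RPKM in T120D lines and 5.49 RPKM in the wt line. The differences, 0.89 (SE 0.12, limma adjusted p = 0.00221) and 0.91 (SE 0.17, limma adjusted p = 0.0107), were of like size although the level of Msn was far higher. Rdx, which encodes radixin, had 30.0, 30.4, 28.9 and 27.0 RPKM in T120D lines and 27.0 RPKM in the wt line. It was not called (0.10, 95% confidence interval -0.17 to 0.38, limma adjusted p = 0.626), and its share of the family was 15.0% to 17.9% in T120D lines and 24.5% in the wt line.

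The regulators themselves were not called, 0 of 3 by limma with and without a trend, and 1 of them, Srf, was higher at an unadjusted p under 0.05. Srf had 13.04, 12.2, 15.4 and 10.4 RPKM in T120D lines and 8.78 RPKM in the wt line. All were above wt, with a difference of 0.48 (95% confidence interval 0.03 to 0.93, limma adjusted p = 0.149). Mkl1 had 9.198, 6.59, 7.65 and 7.40 RPKM in T120D lines and 9.70 RPKM in the wt line (-0.31, 95% confidence interval -0.74 to 0.13, limma adjusted p = 0.336). Mkl2 had 4.68, 3.70, 4.397 and 5.09 RPKM in T120D lines and 4.03 RPKM in the wt line (0.11, 95% confidence interval -0.36 to 0.59, limma adjusted p = 0.764). The T120D values of Mkl1 were all below wt and those of Mkl2 lay on both sides of it. RNA levels say nothing of where these proteins were in the cell.

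The genes were also set out by CArG box in the promoter window, with no test of the difference between classes. Of the 6 tested genes with an A and T core, 3 were called higher with a median difference of 0.61. Of 8 tested genes with the wider form only, 5 were called higher with a median of 0.61. Of 23 tested genes with neither, 14 were called higher with a median of 0.63. The 39 tested genes as a whole had 61.5% called higher, and all tested genes 7.65%. Actb and Tagln, which had no promoter entry, were both called higher. The window covers the start of the gene only, and Acta2, the gene with the highest fold, fell in the wider class because each of its boxes has 1 G or C in the core.

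Among the T120D lines, Tagln and Acta2 were the genes that varied most. The coefficient of variation over the 4 T120D lines was 2.70% for Cfl1, 2.72% for Actg1 and 3.12% for Actn1. It was 29.5% for Tagln, 24.97% for Acta2 and 22.4% for Palld, with a median of 10.1% over the 39 genes, 13.5% over all tested genes and 7.72% over the tested genes of at least 20 RPKM. Line 6 was the lowest T120D line in 18 of the 39 genes (46.2%), where it was lowest in 27.6% of all tested genes. Line 3 was the highest in 14 (35.9%), where it was highest in 23.9% of all tested genes. In line 6 alone the difference from wt was 1.80 for Acta2, 1.54 for Tagln and 1.27 for Cnn2, against 2.46, 2.40 and 1.68 in line 15. Line 6 was the highest T120D line in 6 genes, Actg1, Pfn1, Palld, Tagln2, Fhl2 and Rdx, so it was not low throughout.

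**Figure D4:**
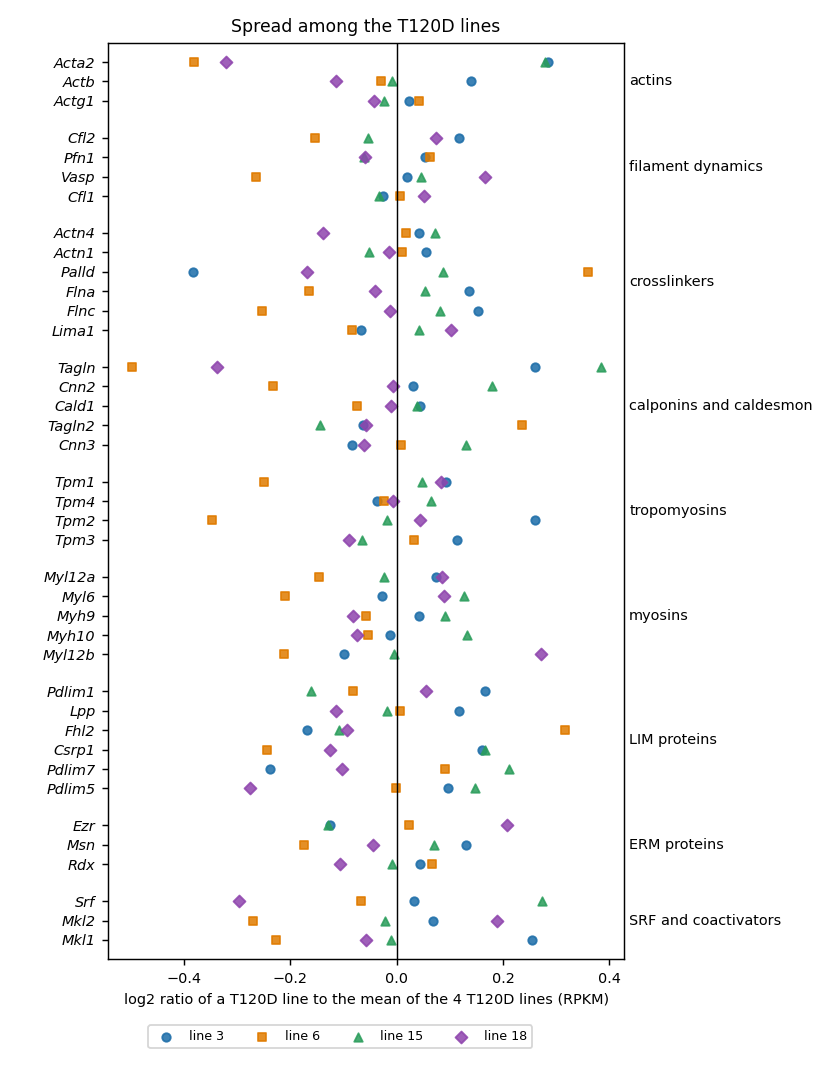
Ratio of each T120D line to the mean of the 4 T120D lines (log2 of RPKM) for the 39 tested genes, by role; the wt line is not part of this plot. Line 6 (squares) is the lowest line in 18 genes, and Acta2 and Tagln split into lines 3 and 15 above and lines 6 and 18 below 0.

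Other genes of the pathway were read from lists that do not hold the 42 genes. Of 16 other targets of MRTF and SRF, all tested, 9 were called higher (56.2%) and 0 lower. At an unadjusted p under 0.05 (limma) these counts were 12 and 0. Over the 10052 tested genes they were 1524 and 1345, and over the 1621 of at least 20 RPKM 526 and 260. The median difference of the list was 0.67. Over all tested genes 7.65% were called higher and 5.45% lower, and of those of at least 20 RPKM 20.5% and 9.13%. The leading called genes of the list were Ctgf, Thbs1, Cyr61 and Ankrd1. Some genes of the list are also known targets of the coactivator YAP, among them Ctgf, Cyr61 and Ankrd1. Ankrd1, a stretch-responsive nuclear cofactor, had 29.3, 24.1, 23.6 and 26.9 RPKM in T120D lines and 8.52 RPKM in the wt line (1.498, SE 0.15, limma adjusted p = 0.000472). Ctgf was at 192 ± 18.2, Thbs1 at 100.2 ± 10.6 and Cyr61 at 154 ± 25.7 RPKM (SD, n = 4) in T120D lines, and at 14.5, 10.1 and 28.6 RPKM in the wt line. The other 5 were Amotl2, Vcl, Zyx, Wdr1 and Itgb1, of which Vcl and Zyx encode the adhesion proteins vinculin and zyxin. Of 10 SRF targets of the immediate early kind, 6 were tested and 2 called higher (33.3%). This stands against 7.65% of all tested genes and 20.5% of those of at least 20 RPKM. With 6 tested genes the count is not read as a result about this list. The 2 called genes, Dusp1 and Fosl1, were at 31.5 ± 7.94 and 44.4 ± 10.2 RPKM in T120D lines and 10.2 and 16.5 RPKM in the wt line (limma adjusted p = 0.00583 and 0.00760). Neither was called when genes of low level were kept (limma adjusted p = 0.0738 and 0.0834, lowest of 11 settings 0.00181 and 0.0032). The other 4 included Egr1, lower in all T120D lines but not called (-0.87, limma adjusted p = 0.0901) and named after its value was seen. The median of those 6 genes was 0.02, and whether the lists differ was not tested.

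Of 33 tested genes of actin nucleation and turnover, 7 were called higher (21.2%) and 2 lower (6.06%), with a median of 0.10. These shares lie near the 20.5% and 9.13% of tested genes of at least 20 RPKM, so the count is not a result about this list. Tmsb4x, which encodes thymosin beta-4, the main store of actin monomers, had 367, 293, 389 and 295 RPKM in T120D lines and 108 RPKM in the wt line. It rose 3.10-fold (1.61, SE 0.16, limma adjusted p = 0.000379), with lines 3 and 15 above lines 6 and 18 as in Acta2. Diap1, a formin that nucleates unbranched filaments, and Arpc4, a subunit of the branching Arp2/3 complex, also rose (0.97 and 0.78, limma adjusted p = 0.0168 and 0.00570). Enah, which encodes the Vasp relative Mena, had 6.01, 5.93, 6.14 and 5.88 RPKM in T120D lines and 15.2 RPKM in the wt line, a difference of -1.22 (SE 0.16, limma adjusted p = 0.00171). Vasp and Enah thus lay on opposite sides of wt in all 4 T120D lines. The other lower gene, Gsn, which encodes the severing protein gelsolin and is named here after its value was seen, was at 71.7 ± 5.40 RPKM in T120D lines and 104 RPKM in the wt line (-0.53, limma adjusted p = 0.0181). Gsn was not called with genes of low level kept or without a trend (highest adjusted p of 11 settings 0.0891, lowest 0.014). The alternative settings were applied to genes outside the 42 after their values were seen.

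**Figure D5:**
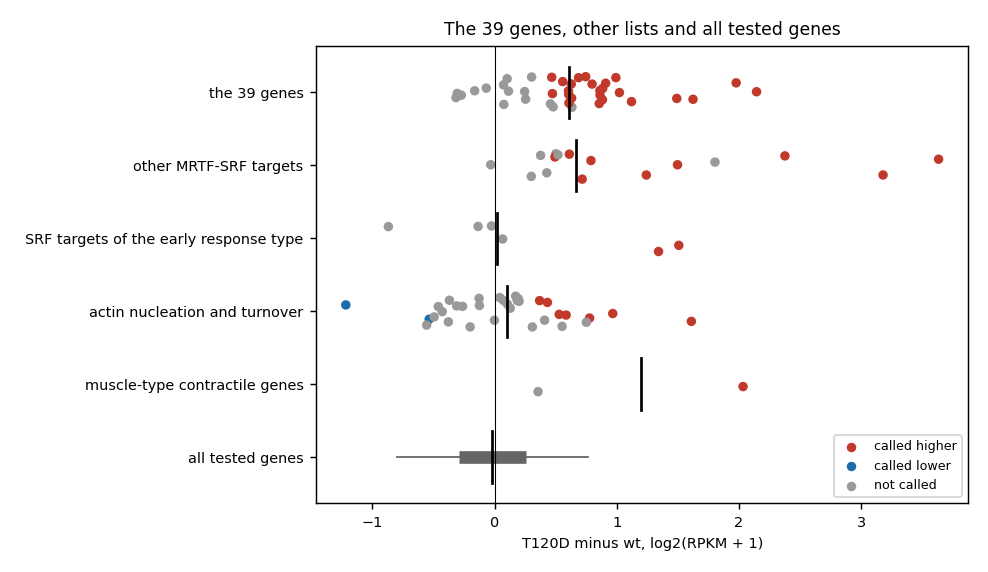
T120D minus wt difference on the log2(RPKM + 1) scale of each tested gene (points, red where called higher and blue where called lower) with the median of each list (black bars), and for all tested genes the 5th to 95th percentile (thin line) and the middle 50% (thick line). The medians of the 39 tested genes and of the other MRTF and SRF targets are 0.61 and 0.67, and that of all tested genes is -0.02.

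Of the 24 calls, 13 held in all 11 alternative settings: Acta2, Actb, Actg1, Pfn1, Actn1, Actn4, Cnn2, Tpm1, Tpm4, Myl12a, Pdlim1, Ezr and Msn. Without an intensity trend in the limma fit 14 of the 24 remained and none was added. Every role other than the regulators had at least 1 gene among these 13. The labels do not say whether the T120D lines are independent of each other, and with lines 3, 15 and 18 averaged into 1 sample 21 of the 24 remained.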

How the data were processed

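The authors deposited 1 table of RPKM values per line for 14454 gene symbols, per the file headers. Per the labels, libraries came from a stranded TruSeq mRNA kit and a MiSeq. Partek and the build mm9 were used, per the submitters' processing notes. Sources used here do not give the aligner, the annotation or the use of strand, so overlapping, antisense and duplicated genes are uncertain.

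RPKM were analysed as log2(RPKM + 1) in R 4.3.3 with limma 3.58.1 (moderated two-sided test, variance trend on intensity, 3 residual and 5.99 prior degrees of freedom). The 10052 genes whose mean over the 5 lines reached 1 RPKM were tested, with Benjamini-Hochberg adjustment over all of them. The spread of the T120D lines was taken to hold for the wt line too. Each p sets the T120D minus wt difference against the spread between the T120D lines, which may be technical. With 1 wt line, what is particular to that line and what goes with T120D cannot be told apart. The fit was checked on simulated data.

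Depth was estimated from low values of genes with 1 GRCm38 transcript, as the depth that brought them closest to whole read counts. At that depth 43.9% to 49.7% of values below 20 reads lay no more than 0.05 from a whole read count. A count model was therefore not fitted. The chance share of 10% holds for a depth fixed beforehand, whereas this depth was chosen on low values of the same genes.

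The genes, lists and naming rule were chosen with earlier results of these data known. All 42 genes are named, and of each other list the called genes with the 4 largest differences. A further list is not reported here. The alternatives were other scalings, pseudocounts, filters and variance models, averaging of lines 3, 15 and 18, and leaving out each T120D line.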

Additional observations from a re-analysis of the deposited data

Results flagged for a closer look

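In 2 of the 39 tested genes 1 T120D line lay far from the other 3 relative to the range of the group, and in both it was line 6. Tpm1 was at 103.6 RPKM in line 6, where the other T120D lines had 127 to 131 RPKM and the wt line 55.8 RPKM. Fhl2 was at 29.1 RPKM in line 6, where the other T120D lines had 20.7 to 21.9 RPKM and the wt line 18.5 RPKM. Chance flags about 1 in 20 groups of this size, so 2 of 39 is near that rate. Without line 6 Tpm1 was still called, and Fhl2 was not called with or without it.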

How the results depend on the processing

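Of the 39 tested genes, 38 kept the direction of their difference in every alternative setting that tested them (11 settings, of which the filter at 5 RPKM left out Palld and Mkl2). The exception was Pdlim5, with a log2 difference of 0.0171 without T120D line 18 and -0.07 with it, called in neither (-0.1172 to 0.0171 with 1 T120D line left out). At an unadjusted p under 0.05 (limma), 2 of the 39 genes were lower in the main fit and 0 to 2 in the alternatives. In the main fit 1345 of the 10052 tested genes were lower at that p. The count of called genes among the 42 was 24, and 0 lower in every setting (limma). It was 24 under median scaling, quantile normalization and a pseudocount of 0.1 RPKM, 25 at a mean of at least 5 RPKM, 21 with lines 3, 15 and 18 averaged, 16 without the filter on low values and 14 without a trend. Over all genes 434 were called higher without the filter, and 455 higher and 361 lower without a trend, against 769 and 548. The filter setting moved the share of higher calls over all genes to 45.8%, against 58.4%. Leaving out 1 T120D line gave 20 to 25 called genes and a median difference of 0.58 to 0.64. Vasp, Flnc, Tpm2 and Myh9 lost their call in 3 or more settings, and the cause was not tested. Cnn1, Myl9 and Mylk rest on few reads. No paired analysis was possible because the wt line has no replicate number shared with the T120D lines.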
